A study of Rattus norvegicus with 60 samples.

Results

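The regions described here are captured bins deep in gene bodies: stretches of 500 nt in which methyl-binding domain (MBD) capture enriched rat hippocampal DNA, and which lie inside a gene, away from both of its ends. A bin was a member if its mean RPKM over the 10 captured libraries taken at 1 h was at least 1 and at least 2 times the mean of the 1 h input libraries. It also had to lie within the start and end of a gene in the RNA table, more than 5 kb from every gene start and more than 2 kb from every gene end. Of 5805202 bins in the genome, 113819 met the rule. They made up 32.5% of the 350378 bins captured at 1 h, and 8.56% of the 1329058 bins that lie this deep in gene bodies whether captured or not. Members were thus chosen by their captured and input levels at 1 h, and these are given as description only.

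In mammals the inner parts of genes usually carry methylated cytosines at CG sites, and gene bodies that are transcribed can be as methylated as silent ones or more, in contrast to promoters, where methylation goes with silence. MBD capture pulls down fragments with several methylated CG sites, so its signal depends on how many such sites a bin holds as well as on how often each is methylated. In the hippocampus, enzymes that write and remove this mark have been studied for their part in memory.

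All samples were hippocampal CA1 tissue from rats of the Sprague-Dawley strain aged 90 to 120 d, taken at 1 h or at 24 h in a study of contextual threat recognition training. At each time the captured DNA libraries comprised 3 from threat, 4 from place and 3 from naive animals, beside 3 input libraries of DNA that had not been captured. The 34 polyA+ RNA libraries comprised 8 threat and 6 place libraries at 1 h, 6 threat and 5 place libraries at 24 h, and 9 naive libraries without a stated time. The labels do not say what place and threat animals each experienced, nor whether each replicate was an animal of its own. The tests therefore reflect variation among the libraries at hand, and this can be technical.

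Captured libraries held 31.4 to 35.7 M reads at 1 h and 42.2 to 58.5 M at 24 h, and input libraries 37.2 to 39.9 M and 50.4 to 59.5 M. A member held a median of 36 reads per captured 1 h library. The 19521 members that met the same rule on the 24 h libraries held a median of 39 per captured 24 h library. Marker genes of pyramidal cells were present in the RNA: Wfs1 ran from 40.9 to 160 FPKM, although Spink8 stayed between 0 and 0.176 FPKM. Oligodendrocyte markers were high throughout, with Mbp, a myelin protein, between 702 and 1926 FPKM. The summed FPKM of 7 choroid plexus markers had a median of 65.7 in threat 1 h and 92.3 in place 24 h libraries. It was 18.8 in place 1 h, 19.3 in threat 24 h and 13.5 in naive libraries. The sum reached 6381 in 1 threat 1 h library, against 4.44 to 265 in naive libraries, and the part of such tissue differences in the RNA results was not tested. In tissue samples, fewer cells of a type and less RNA per cell cannot be told apart.

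Members were spread over 9842 host genes, which is 74.3% of the 13242 genes long enough to hold a deep bin. The other 3400 genes had none. A host gene held a median of 6 members and at most 218. There were 1161 hosts with a single member, 1532 with at least 20 and 70 with at least 100, and 1234 genes together held as many members as all the rest. Members clustered along the genome: 75.8% lay directly beside another member. They formed 61318 runs, 45% of which were a single bin. The longest run held 27 bins over 13.5 kb in Nphp4, a gene of the ciliary transition zone, at chr5:173282001-173295500 (rn5).

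Bins near the far end of a gene were captured most often. At 1 h the share of captured bins was 8.56% deep in gene bodies, against 7.64% within 1 kb of a gene start, 7.72% from 1 to 5 kb of a start, 14.2% within 2 kb of a gene end and 4.59% more than 10 kb from any gene. Within gene bodies the share fell along the distance from the host's end, from 14.9% at 2 to 5 kb through 8.85% at 20 to 50 kb to 4.85% beyond 200 kb. It rose along the gene, with 6.30% of bins captured in the first 0.2 of the host's length and 10.6% in the last 0.2.

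Short genes were captured more densely than long ones. In hosts of 7 to 20 kb, 15.4% of deep bins were members, against 8.40% in hosts of 100 to 200 kb and 4.21% in hosts above 500 kb. The members of long genes were not weaker at 24 h, a time the rule did not use: their mean captured level was 0.843 RPKM in hosts above 500 kb and 0.769 RPKM in hosts of 7 to 20 kb. Their input level moved the same way, 0.344 RPKM in the longest hosts and 0.291 RPKM in the shortest. How the number of CG sites per bin moves with gene length was not tested.

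**Figure D1:**
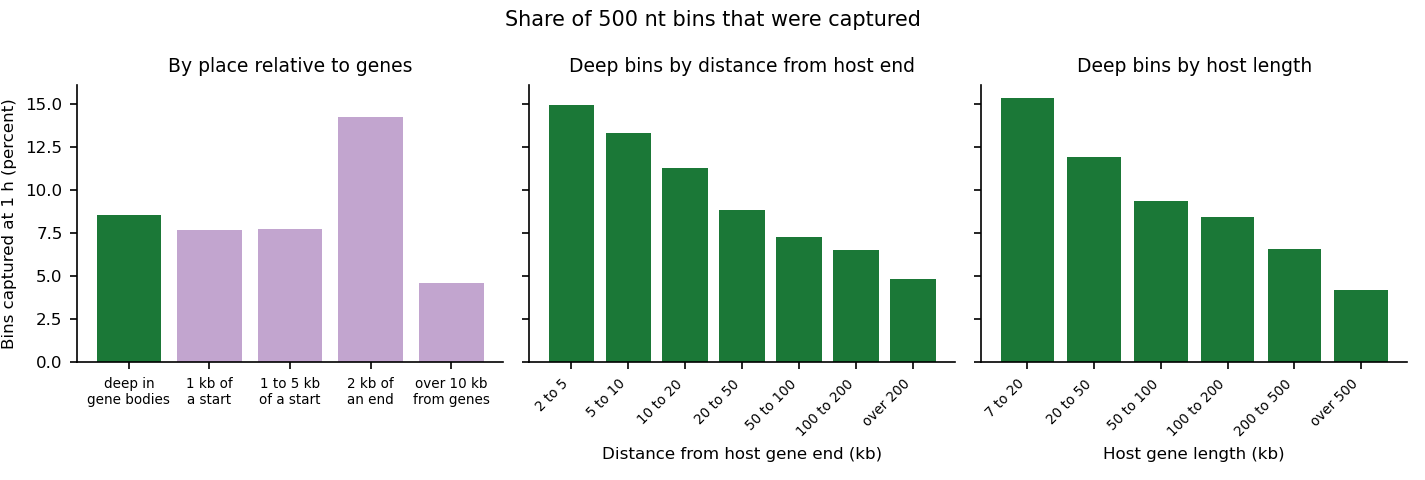
Percent of 500 nt bins that were captured at 1 h (vertical axis), by place relative to genes (left), by distance of deep bins from the host gene's end in kb (middle) and by host gene length in kb (right); green bars are deep gene-body bins and each bar is a share of all bins in its class. The share is 8.56% deep in gene bodies, falls from 14.9% to 4.85% with distance from the gene end and is lowest, 4.21%, in hosts above 500 kb.

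The X chromosome held few members. Of its 44094 deep bins 593 were members, which is 1.34%, while the autosomes ranged from 6.42% on chromosome 2 to 17.3% on chromosome 12. Input was also lower on X, at 0.130 RPKM over its deep bins at 1 h against 0.300 to 0.453 RPKM on the autosomes, and the part of read depth in the difference was not tested. At 24 h the deep bins of X had 0.125 RPKM in captured libraries and 0.168 RPKM in input. Of 1708 genes with at least 200 deep bins only 31 held no member, and 15 of these were among the 63 such genes on X.

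The hosts with the most members were long genes of neurons and other cells. Cdh13, a cadherin anchored to the membrane by a lipid, held 218 members of 1272 deep bins (17.1%) and was expressed at 17.5 ± 1.90 FPKM in naive tissue (SD, n = 9). Ptprm, a receptor tyrosine phosphatase, held 214 and Slc39a11, a zinc transporter, 185. Itpr2, a calcium channel of the endoplasmic reticulum, held 181, Txndc15 176 and Cacna1c, the pore subunit of an L-type calcium channel, 175. Abcc4, a transporter that exports organic anions, had 194 members in only 444 deep bins (43.7%) at 1.97 ± 0.330 FPKM.

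Reln encodes reelin, a secreted glycoprotein that guides neuronal layering and is made by interneurons in the adult hippocampus. It had 203 members of 817 deep bins (24.8%), with a host level of 5.71 ± 1.16 FPKM (SD, n = 9). The mean over these members at 24 h was 1.08, 1.05 and 0.997 RPKM in threat libraries, 0.946, 0.896, 0.782 and 0.866 RPKM in place libraries, 0.894, 0.878 and 0.832 RPKM in naive libraries, and 0.339 to 0.341 RPKM in input. Every threat library lay above every place and naive library, and all 10 lay above input. Abcc4 had the same order at 24 h, with 1.15, 1.08 and 1.04 RPKM in threat, 0.941, 0.888, 0.806 and 0.845 RPKM in place, 0.953, 0.948 and 0.830 RPKM in naive and 0.277 to 0.306 RPKM in input libraries.

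Among genes with at least 50 deep bins, a median of 6.45% of those bins were members, and in 16 of 6071 genes more than 50% were. The highest shares were in Dnahc1, an axonemal dynein (69.4% of 111 bins), Ube3b, a ubiquitin ligase (67.6%), Nphp4 (61.5%), Itpr3, an endoplasmic calcium channel (61.3%), Gcn1l1, which senses stalled ribosomes (59%), and Mtmr1, a lipid phosphatase (57.7%). Their expression differed widely. Dnahc1 was at 0.0218 FPKM and Itpr3 at 0.780 FPKM, while Ube3b stood at 9.04 FPKM and Mtmr1 at 10.6 FPKM in naive tissue.

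The longest genes with no member were as varied. Gria3, an AMPA receptor subunit on X, had none in 516 deep bins at 36.3 ± 2.37 FPKM, and Luzp2 on chromosome 1 had none in 393 at 20.7 ± 2.16 FPKM. Hdx, Olfr798, P22k15 and ENSRNOG00000048593 also had none, the first of these at 0.177 FPKM and the last at 16.7 FPKM.

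Gene groups are given by the share of their pooled deep bins that were members, beside 8.56% over all deep bins, and by the share in their median gene, beside 7.37% in the median of all genes with at least 10 deep bins. These shares are descriptions at 1 h and no difference between groups was tested. All members had a mean of 0.788 RPKM at 24 h. Ionotropic glutamate receptors had 466 members in 9317 deep bins (5.0%; median gene 5.08%), with 16 of 17 genes holding at least 1. Within them the kainate receptor Grik3 reached 20% (83 members) and Grik4 12.1% (68), while the NMDA receptor subunits Grin2b and Grin2a had 8.31% (71) and 7.34% (59). Metabotropic glutamate receptors had 2.76% (99 members; median gene 3.38%), Grm4 with 41.0% of its 39 deep bins beside Grm5 with 1.81% of 1105 and Grm7 with 1.05% of 1144. GABA receptor and synthesis genes had 3.47% (median gene 1.12%), and 101 of their 162 members lay in Gabbr2, a subunit of the metabotropic GABA receptor. Gabrb1, a subunit of the ionotropic one, had 9 members in 927 deep bins.

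Voltage-gated channels had 1124 members in 33 of 33 genes (7.21%; median gene 8.39%) and postsynaptic scaffolds and kinases 898 (7.55%; median gene 8.78%). Calcium channel genes led the channel list, with 175 members in Cacna1c, 152 in Cacna1d (26.6% of its deep bins), 76 in Cacna1a and 72 in the auxiliary subunit Cacna2d3. Among scaffolds and kinases Prkce had 129, Magi2 117, Prkca 81 and Dlgap2 76. Synaptic adhesion and guidance genes had 4.88% (median gene 2.67%), with 112 members in the teneurin Tenm2 and 93 in the guidance cue Slit3 after Cdh13.

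The genes of the methylation machinery had 99 members in 907 deep bins (10.9%; median gene 6.92%). Dnmt1, which copies methylation after replication, had 33 in 77 (42.9%), the de novo methyltransferase Dnmt3b 14 in 35 (40.0%) and the DNA glycosylase Tdg 9 in 25 (36%), but Dnmt3a only 12 in 195 (6.15%). Genes examined for methylation in memory had 9.01% (median gene 4.28%), and Reln alone gave 203 of their 469 members. Immediate early transcription factors are short: 7 of 22 had a deep bin, and they held 18 members (6.90%; median gene 8.80%), 9 of them in Nr4a3. Glucocorticoid-responsive genes had 9.27% (median gene 8.08%), including 33 in the zinc finger factor Zbtb16 and 21 in Fkbp5, a co-chaperone of the glucocorticoid receptor (30.4% of its deep bins). Oxidative phosphorylation genes had 7.67% (48 members; median gene 4.55%).

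Pooled marker genes of cell types ranged from 5.80% for CA1 pyramidal cells and 6.97% for CA2 and CA3 to 14.9% for oligodendrocytes and 19.0% for dentate granule cells. Astrocyte (8.40%), microglia (7.0%), choroid plexus (8.81%), interneuron (10.2%) and endothelial and mural markers (13.0%) lay between. By median gene the order was different. It was 7.37% for CA1, 6.25% for CA2 and CA3, 12.5% for oligodendrocytes and 12.5% for dentate granule cells. Astrocyte, microglia, choroid plexus, interneuron, and endothelial and mural markers had 7.69%, 8.33%, 18.1%, 9.09% and 7.08%. A single long gene held most members of some lists, as Zfp536 did for oligodendrocytes (117 of 172), Reln for interneurons (203 of 256) and Flt1, a receptor for vascular endothelial growth factor, for endothelial cells (91 of 141). The interneuron list had the highest 24 h level of the lists, 0.924 RPKM over its members, and 32.8% of them passed the same rule applied to the 24 h libraries. Its 24 h input was also high, 0.351 RPKM against 0.312 RPKM over all members, and most of its members were those of Reln.

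Members had less signal at 24 h than at 1 h. The median member had 1.69 RPKM in captured and 0.480 RPKM in input libraries at 1 h, and 0.752 RPKM in captured and 0.304 RPKM in input libraries at 24 h. At 24 h all 10 captured libraries exceeded input over the members: the ratio of each library's mean to the input mean was 3.01, 2.83 and 2.71 in threat, 2.56, 2.38, 2.21 and 2.33 in place, and 2.50, 2.45 and 2.30 in naive libraries. Only 19521 members (17.2%) met the 24 h version of the rule, against 23.0% of the other captured bins and 0.193% of deep bins that were not members. Since 1 h levels chose the members, the comparison of the 2 times is a description.

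Bins with more signal at 1 h kept more at 24 h, and input tracked both. Across members, the rank correlation between captured and input levels was 0.586 at 1 h and 0.231 at 24 h, and that between captured levels at 24 h and at 1 h was 0.364 (n = 113819 bins, which share libraries and base composition). Deep bins under 0.5 RPKM at 1 h had 0.276 RPKM in 1 h input, while those above 10 RPKM had 3.81 RPKM. The members with the highest 24 h level also had high input: a bin in Ephb1, an ephrin receptor, had 70.1 RPKM in captured and 15.7 RPKM in input libraries, and bins in Lphn3, an adhesion receptor of synapses, and Insr, the insulin receptor, had 31.2 and 22.2 RPKM over inputs of 6.86 and 9.72 RPKM. Bins in ENSRNOG00000049138 and ENSRNOG00000028913 followed the same pattern, with 28.3 and 22.5 RPKM over inputs of 8.42 and 6.23 RPKM. At the other end, the rule's threshold fell among bins that hardly differed: members in Grxcr1, Tmtc2 and ENSRNOG00000038436 lay just above 1 RPKM at 1 h, and bins in Dennd1b, Tex26 and Stk10 just below.

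Captured bins far from genes kept more signal at 24 h than members did. Members averaged 0.788 RPKM and captured bins more than 10 kb from any gene 1.11 RPKM over the 10 captured libraries, a difference of -0.317 ± 0.0374 RPKM (SD). Members were lower in 10 of 10 libraries. Input was also lower in members, 0.310 to 0.314 RPKM against 0.384 to 0.390 RPKM, and was not subtracted here.

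Threat libraries had the highest signal over members at both times. At 1 h the mean RPKM over members was 2.49, 2.42 and 2.15 in threat, 2.11, 1.87, 2.00 and 2.37 in place, 1.92, 2.00 and 2.13 in naive and 0.537 to 0.565 in input libraries. The ranges of the 3 captured groups overlapped at 1 h. At 24 h it was 0.939, 0.882 and 0.846 in threat, 0.798, 0.741, 0.691 and 0.726 in place, 0.779, 0.765 and 0.719 in naive and 0.310 to 0.314 in input libraries, and the 3 threat libraries lay above all 7 others. Members took 6.33 ± 0.335% of all RPKM in threat libraries at 24 h (SD, n = 3), 5.26 ± 0.318% in place (n = 4), 5.37 ± 0.225% in naive (n = 3) and 2.22 ± 0.0126% in input libraries (n = 3). The same order held outside members: captured bins far from genes had 1.17 to 1.31 RPKM in threat, 0.962 to 1.09 RPKM in place and 1.02 to 1.13 RPKM in naive libraries at 24 h.

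**Figure D2:**
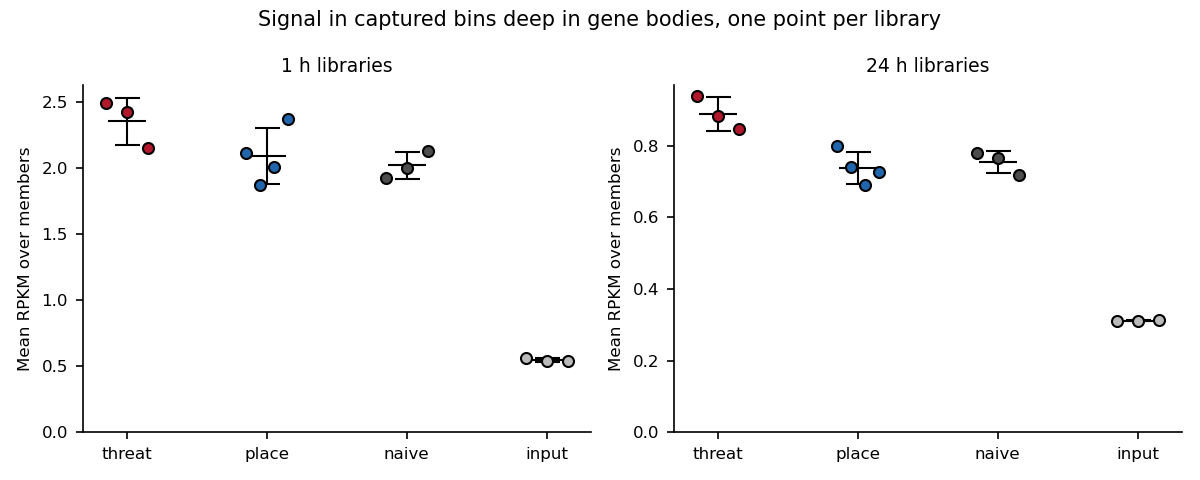
Mean RPKM over the 113819 members (vertical axis, from 0) in each library at 1 h (left) and 24 h (right); points are libraries, ordered threat, place, naive, input, and lines show the group mean and SD. The 24 h threat libraries lie between 0.846 and 0.939, above the place and naive libraries, and all captured libraries lie above input.

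The share of captured deep bins was highest in hosts of 0.1 to 1 FPKM at both times, a description with no test. With hosts classed by mean FPKM over the 9 naive RNA libraries, 7.87% of deep bins were members below 0.1 FPKM, 9.86% from 0.1 to 1, 8.82% from 1 to 10 and 7.90% at 10 FPKM and above. The 24 h version of the rule was met by 1.89%, 2.17%, 1.68% and 1.22% of the same bins, lowest in the top class. Across 6071 genes with at least 50 deep bins, the rank correlation of this percentage with FPKM was -0.04, and with gene length -0.12. At 1 h the members' captured level was 2.15, 2.12, 2.15 and 2.15 RPKM from the lowest class to the highest.

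At 24 h, members in silent and weakly expressed hosts had more signal than members in strongly expressed ones. Their mean captured level was 0.830, 0.806, 0.787 and 0.760 RPKM from the lowest class to the highest, on inputs of 0.315, 0.309, 0.312 and 0.311 RPKM. The excess over input was 0.515, 0.496, 0.475 and 0.449 RPKM, and each step was downward in 10 of 10 libraries, from 0.403 to 0.672 RPKM per library in the lowest class and from 0.363 to 0.596 RPKM in the highest. The share of members that met the 24 h rule was 21.1%, 19.3%, 17.1% and 14%. Across 5743 genes with at least 5 members, the rank correlation of the members' mean with host FPKM lay between -0.19 and -0.13 in the 10 captured 24 h libraries, between -0.03 and 0.02 in the captured 1 h libraries, between 0.13 and 0.14 in 1 h input, and between -0.02 and 0.02 in 24 h input.

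Over all deep bins, captured or not, the order was different. The excess over input at 24 h was 0.0166 RPKM below 0.1 FPKM, 0.0503 RPKM from 0.1 to 1, 0.0208 RPKM from 1 to 10 and -0.00666 RPKM at 10 FPKM and above. The excess of the most expressed class lay below that of the lowest by 0.0233 ± 0.00417 RPKM (SD), in 10 of 10 libraries. That of the class from 0.1 to 1 FPKM lay above the lowest by 0.0337 ± 0.00429 RPKM, in 10 of 10. All class pairs tested gave p = 0.00195 by exact 2-sided sign-flip permutation over the 10 libraries, the smallest possible. Signal over deep bins was thus highest in weakly expressed hosts rather than silent ones. The captured level was 0.298, 0.349, 0.323 and 0.297 RPKM from the lowest class to the highest, on inputs of 0.281, 0.299, 0.303 and 0.304 RPKM. Captured levels of the lowest and highest class were thus nearly equal, and their difference in excess was about that of their inputs. The same input mean was subtracted from every library, so the counts of libraries and the p do not cover the spread of input. The part of input in the order of the classes was not tested.

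**Figure D3:**
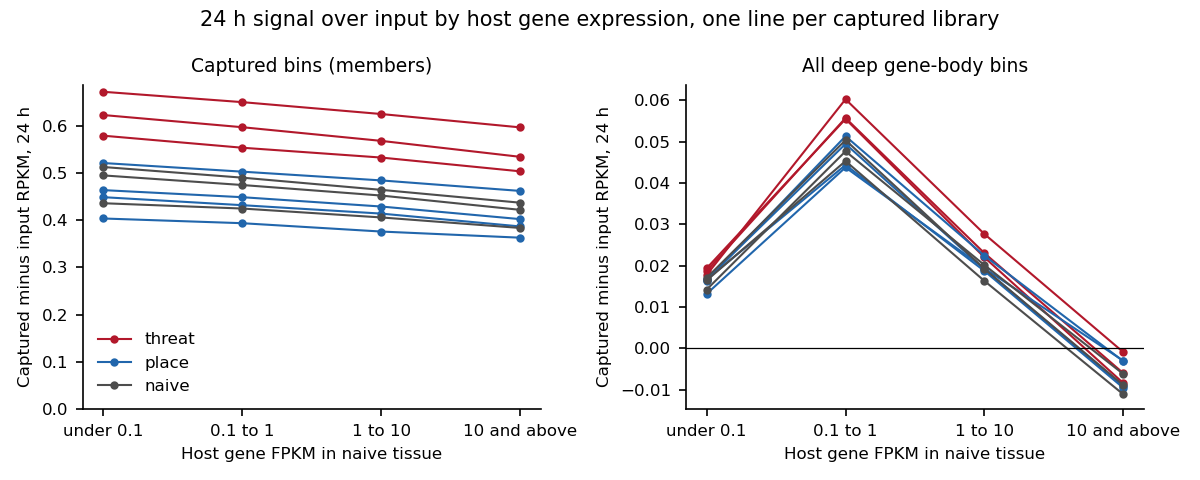
Captured minus input RPKM at 24 h (vertical axis) against host gene FPKM class in naive tissue (horizontal axis), for members (left) and for all deep gene-body bins (right, with a line at 0); each line joins the 4 class values of 1 captured library, coloured threat, place or naive. The excess over members falls at every step in every library, while over all deep bins it peaks in the class from 0.1 to 1 FPKM.

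Single members differed between threat and naive libraries at 1 h in few places. Of the 113819 members 19 passed an adjusted p of 0.05 in limma, in 13 host genes. All 350378 captured bins were tested together and 0.016% of them were called in this comparison, so the 19 are close to the background. Of the members 18 were higher in threat, where 0.0146% of all bins were, and 1 lower, where 0.00143% were. Without threat replicate 3 the count was 2487, and it was 8 without threat replicate 1, 12 and 60 without naive replicates 1 and 3, and 40 and 79 without place replicates 2 and 4. The median member was higher in threat by 0.17 on the log2(RPKM + 0.25) scale, as was the median of all captured bins, and scaling by trimmed means (TMM), which sets that shift to 0.00, left 9 calls.

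Notch4 gave the largest of these differences. It encodes a Notch receptor of endothelial cells and was at 1.69 FPKM. The bin at chr20:6415501-6416000 lies 6.35 kb into this gene of 24.0 kb and had 13.8, 19.98 and 11.4 RPKM in threat libraries at 1 h, 3.62, 10.8, 3.89 and 13.4 RPKM in place libraries, 3.30, 3.13 and 3.41 RPKM in naive libraries, and 1.69 to 2.28 RPKM in input. All threat libraries lay above all naive ones, while place libraries fell into 2 low values near the naive ones and 2 high values, 1 of them within the threat range. The difference of threat from naive was 2.07 ± 0.24 log2 units (SE; limma, adjusted p = 1.65e-07) and passed in all 18 settings of the fit that tested it. The bins on either side, which share fragments with it, differed by 1.88 and 1.31 log2 units. At 24 h the same bin was low everywhere, 0.262 to 0.654 RPKM in threat, 0.196 to 0.767 RPKM in place and 0.339 to 0.491 RPKM in naive libraries.

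A bin in Wdr64, a gene nearly silent here (0.00137 FPKM), was higher in threat than in both other groups. At chr13:98283001-98283500 it had 3.77, 6.15 and 5.92 RPKM in threat, 1.76, 2.44, 1.31 and 1.97 RPKM in place, 1.83, 1.81 and 1.96 RPKM in naive and 0.773 to 0.907 RPKM in input libraries at 1 h. The threat values did not overlap either group. The difference was 1.36 ± 0.19 log2 units from naive (limma, adjusted p = 0.000128) and 1.38 ± 0.18 from place (limma, adjusted p = 1.79e-05). At 24 h it had 0.662 to 0.875 RPKM in threat, 0.335 to 0.682 RPKM in place and 0.414 to 0.604 RPKM in naive libraries. Threat thus overlapped place but lay above all naive libraries.

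Clmp, an adhesion molecule of junctions, had a bin higher in threat than in naive libraries by 1.33 ± 0.25 log2 units (limma, adjusted p = 0.0139). Its values were 2.92, 1.94 and 2.39 RPKM in threat and 0.356, 1.57 and 0.803 RPKM in naive libraries, and the call was lost with TMM scaling, with a 0.5 RPKM filter and without naive replicate 1 or threat replicate 1. Place and naive libraries averaged 0.930 and 0.909 RPKM in this bin, under the 1 RPKM of the rule. It was a member only through its threat libraries, so part of the difference comes from the rule. The single member lower in threat lay in Pls1, an actin-bundling protein, with 0.402, 0.416 and 0.907 RPKM in threat and 1.98, 1.13 and 1.56 RPKM in naive libraries (-1.15 ± 0.23 log2 units; limma, adjusted p = 0.0332), a call lost without any of threat replicates 1 and 2, naive replicates 1 and 3 and place replicate 3.

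Place and naive libraries differed at 1 h in 6 members of 3 host genes, where 0.00285% of all captured bins were called. Of these 4 were higher in place, where 0.00171% of all bins were, and 2 lower, where 0.00114% were. Leaving out 1 library gave 3 calls without naive replicate 1, 13 without naive replicate 2 and 9 without place replicate 4 or threat replicate 3. In Apba2, an adaptor protein of neurons that binds the amyloid precursor protein, the bin at chr1:126566501-126567000 had 16.9, 7.86, 13.5 and 13.0 RPKM in place libraries, 5.64, 5.73 and 5.47 RPKM in naive libraries and 1.98 to 2.32 RPKM in input. Place libraries lay above all naive ones, and threat libraries did too, at 14.6, 9.94 and 12.5 RPKM. The difference of place from naive was 1.11 ± 0.17 log2 units (limma, adjusted p = 0.00102) and passed in all 18 settings. Apba2 is expressed at 42.3 FPKM.

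Fam189a1, also on chromosome 1, held 4 of the 6. The bin at chr1:126867501-126868000 was lower in place, with 1.4, 1.20, 1.31 and 2.64 RPKM against 3.66, 4.65 and 4.22 RPKM in naive libraries, and 3.32, 5.09 and 3.44 RPKM in threat libraries. Place did not overlap either group, and its difference from naive was -1.28 ± 0.19 log2 units (limma, adjusted p = 0.00102). Its neighbour, which shares fragments with it, fell by 1.18 log2 units. The bins at 126879001 and 126879501 in the same gene were higher in place by 1.13 and 1.09 log2 units, calls that were lost without naive replicate 1. Place libraries thus differed from naive in both directions within 1 gene body. In these bins threat libraries also lay above all naive ones, at 1.61 to 2.10 against 0.762 to 1.08 RPKM and at 1.81 to 2.72 against 0.966 to 1.42 RPKM. The bin at 126879501 had an input mean of 0.914 RPKM and a naive mean of 1.26 RPKM. It reached 2 times input only through its place libraries, so part of its difference comes from the rule. The sixth member was in Zfat, a zinc finger gene, at 1.58 ± 0.27 log2 units (limma, adjusted p = 0.0127). There naive libraries were uneven, at 1.58, 4.65 and 1.26 RPKM, against 5.29, 4.87, 8.32 and 10.2 RPKM in place libraries, and the call was lost without naive replicate 1 or 3 and without place replicate 3 or 4.

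Threat and place libraries differed at 1 h in 17 members of 12 host genes, where 0.0174% of all captured bins were called. Of these 16 were higher in threat, where 0.0166% of all bins were, and 1 lower, where 0.000856% were. The count was 130 without place replicate 4, 83 without threat replicate 3, 26 without place replicate 3 and 11 without threat replicate 1. The widest difference was in Myo3b, a motor protein of sensory cells that is at 0.0111 FPKM here. The bin at chr3:63142001-63142500 had 8.5, 6.29 and 5.54 RPKM in threat, 3.80, 0.414, 0.486 and 4.16 RPKM in place, 5.49, 4.36 and 3.97 RPKM in naive and 0.429 to 0.601 RPKM in input libraries. Place replicates 2 and 3 sat at the input level while the other 2 were near the lowest naive value. The difference was 2.01 ± 0.30 log2 units (limma, adjusted p = 0.000575) and passed in all 18 settings. Stx8, a syntaxin of late endosomes, followed at 1.17 ± 0.20 log2 units (limma, adjusted p = 0.00596), with 4.33, 3.51 and 3.05 RPKM in threat and 1.13, 2.44, 1.12 and 1.43 RPKM in place libraries, a call lost with TMM scaling and without threat replicate 1. The member lower in threat was in Stk39, a kinase that regulates chloride cotransporters (-1.04 ± 0.21 log2 units; limma, adjusted p = 0.0353), and it was lost without threat replicate 2 or 3 and without place replicate 1 or 2.

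**Figure D4:**
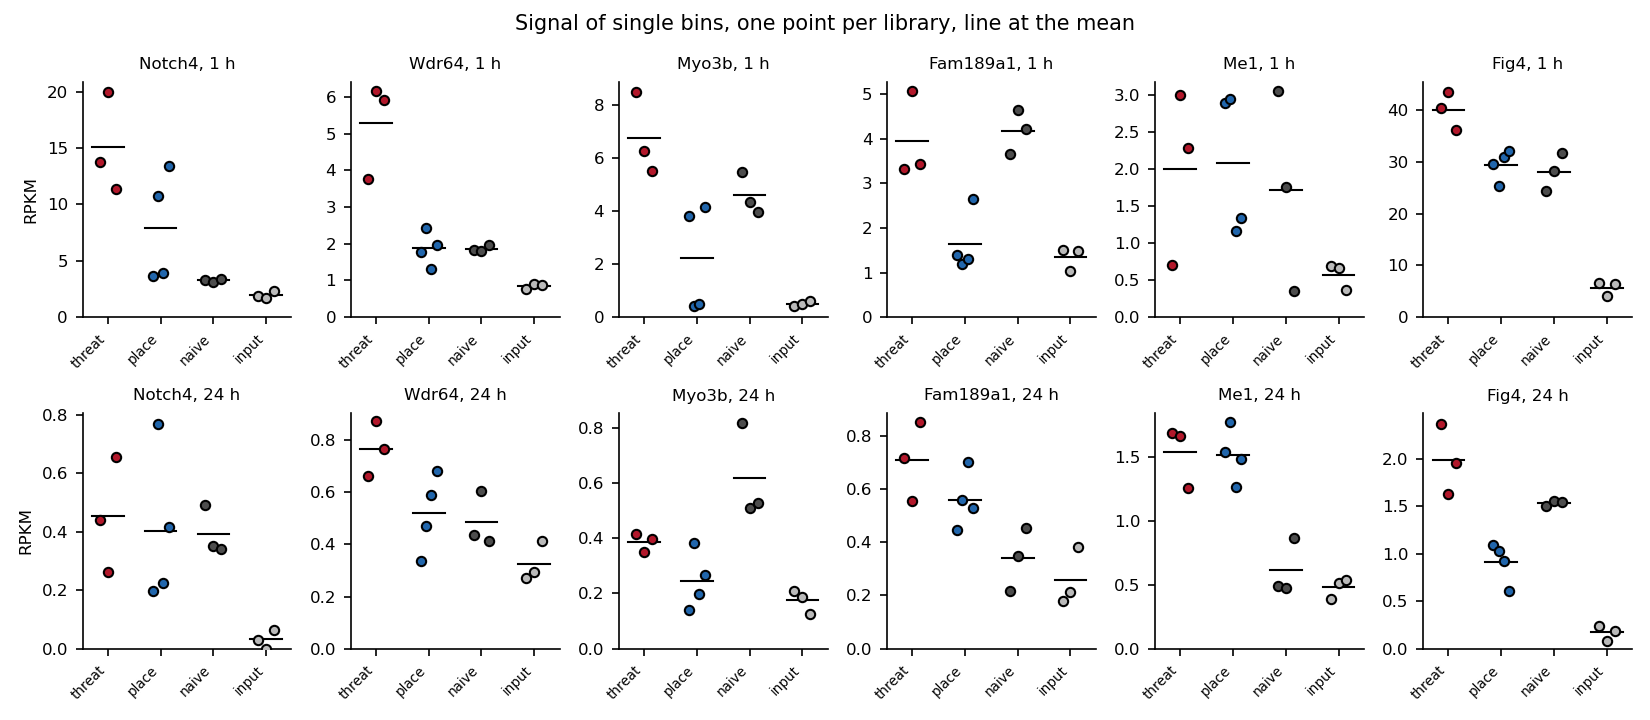
RPKM (vertical axes, from 0, each panel on its own scale) of 6 members, in Notch4, Wdr64, Myo3b, Fam189a1, Me1 and Fig4, in each library at 1 h (top) and 24 h (bottom); points are libraries, ordered threat, place, naive, input, and lines are group means. In Notch4, place libraries split into 2 low and 2 high values at 1 h, and in Me1 the naive libraries lie below threat and place at 24 h.

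At 24 h, differences from naive were found in 1 member. Of 19521 members tested 1 was called between threat and naive libraries, where 0.0105% of all 85335 tested bins were called, and 1 between place and naive libraries, where 0.0082% were. Both calls were the same bin in Me1, which encodes cytosolic malic enzyme and is at 15.6 FPKM. This bin, at chr8:93850501-93851000 and 12.6 kb into the gene, had 1.68, 1.66 and 1.25 RPKM in threat, 1.54, 1.77, 1.26 and 1.48 RPKM in place, 0.491, 0.477 and 0.867 RPKM in naive and 0.391 to 0.539 RPKM in input libraries. Threat and place libraries lay above all naive libraries, 2 of which were at the input level. The difference from naive was 1.07 ± 0.18 log2 units in threat (limma, adjusted p = 0.00837) and 1.05 ± 0.17 in place (limma, adjusted p = 0.00726). Threat and place share the naive libraries in these comparisons. At 1 h the 3 groups overlapped in this bin, with 0.704 to 3.01 RPKM in threat, 1.17 to 2.94 RPKM in place and 0.352 to 3.05 RPKM in naive libraries. The call of threat against naive was lost with TMM scaling in limma and in edgeR, with only threat and naive libraries in the fit, and without naive replicate 2 or threat replicate 2. In that comparison 103 members were called without naive replicate 1, 31 without threat replicate 3, 6 without threat replicate 1 and 2 without place replicate 3. The call of place against naive was lost without naive replicate 2 and without place replicate 1 or 2, and a second member was called without naive replicate 1.

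The members nearest the threshold against naive at 24 h did not pass. For threat they were in Armc4 (0.97 log2 units), Cftr, Tubgcp6 and Kazn, with adjusted p between 0.0661 and 0.0757 in limma. For place they were in Gm16432, Ryr2, Ccdc6 and Fig4, with adjusted p between 0.239 and 0.499 in limma.

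Between threat and place at 24 h, 1449 of 19521 members were called, all higher in threat, in 982 host genes. Among all bins tested 7.7% were called, 7.69% higher and 0.00469% lower, so the members were near the background. The calls followed the general difference in signal: the median member was higher in threat by 0.28 log2 units, 96.3% of members were above 0, and the median of all bins was 0.28. With TMM scaling, whose factors were 1.22, 1.17 and 1.09 in threat libraries, 1.01, 0.934, 0.842 and 0.921 in place libraries and 1.01, 0.974 and 0.894 in naive libraries, no member was called by limma or by edgeR. There 879 members had an unadjusted p under 0.05 in limma and 1035 in edgeR. The count also rested on single libraries: it was 1, 3, 2, 19 and 317 without threat replicates 2 and 1 and place replicates 3, 4 and 2, and 3585 without place replicate 1.

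**Figure D5:**
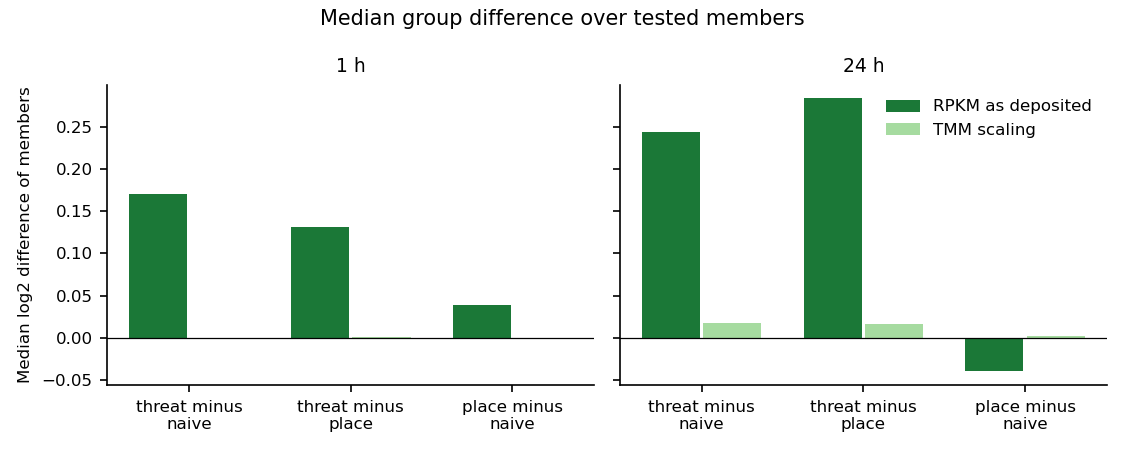
Median log2 difference over tested members (vertical axis) for threat minus naive, threat minus place and place minus naive at 1 h (left) and 24 h (right), with RPKM as deposited (dark bars) and after TMM scaling (light bars). As deposited, the medians reach 0.28 for threat minus place at 24 h, and after TMM scaling none exceeds 0.02.

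Fig4, which encodes a lipid phosphatase of endosomes, led the 1449. Its bin at chr20:47720001-47720500 had 2.37, 1.63 and 1.96 RPKM in threat, 1.09, 1.03, 0.924 and 0.606 RPKM in place, 1.5, 1.56 and 1.54 RPKM in naive and 0.0805 to 0.240 RPKM in input libraries at 24 h. The 3 captured groups did not overlap, with naive between the others, and threat differed from place by 0.95 ± 0.16 log2 units (limma, adjusted p = 0.0133). The bin was far stronger at 1 h, when it had 40.4, 43.6 and 36.1 RPKM in threat, 29.6, 25.2, 31.0 and 32.0 RPKM in place and 24.3, 28.1 and 31.8 RPKM in naive libraries. Dlgap2, a postsynaptic scaffold protein, had a bin at 2.32, 2.16 and 1.62 RPKM in threat, 0.755, 1.36, 0.728 and 1.02 RPKM in place and 0.901, 1.43 and 1.28 RPKM in naive libraries (0.92 ± 0.17 log2 units from place; limma, adjusted p = 0.0201). Pwp2, a protein of ribosome assembly, Arsj, a sulfatase, and 9030624J02Rik had differences of 0.88, 0.91 and 0.89 log2 units. In the last 3, place libraries averaged 0.800, 0.694 and 0.751 RPKM and naive libraries 0.954, 1.04 and 0.995 RPKM. They met the 1 RPKM of the 24 h filter only through their threat libraries, so part of their difference comes from that choice. None of the 5 bins passed under TMM scaling or without threat replicate 1.

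Members called at 1 h did not stand out at 24 h. Of the 18 higher in threat than in naive libraries at 1 h, 13 (72.2%) were above 0 at 24 h with a median of 0.08 log2 units, against 81.8% and 0.18 for all members. Of the 16 higher in threat than in place libraries, 13 (81.2%) were above 0 at 24 h with a median of 0.24, against 85.4% and 0.20. Of the 1449 higher in threat than in place libraries at 24 h, 86.6% were above 0 at 1 h with a median of 0.17, against 79.5% and 0.15 for the members tested at 24 h.

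Group differences over members were close to each other across the expression classes of their hosts. At 24 h the median difference of threat from place over members was 0.29, 0.28, 0.28 and 0.28 log2 units from the lowest expression class to the highest, and 8.52%, 7.93%, 7.13% and 6.85% were called. At 1 h that of threat from naive was 0.17, 0.16, 0.17 and 0.18.

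When members were averaged per gene, the same picture held. The fit took 11714 gene features of at least 3 bins, of which 7365 were the mean over a gene's members. No gene was called at 1 h in limma, where 0.00854%, 0% and 0.00854% of all features were called in the threat to naive, place to naive and threat to place comparisons. Unadjusted p was under 0.05 for 1867, 77 and 1061 of these genes, in that order. Without threat replicate 3, 1412 genes were called for threat against naive and 415 for threat against place, and without naive replicate 3 or place replicate 4 the counts in those comparisons were 24 and 22, and every other library left out gave at most 2. Sptlc3, Tspan8 and Alg14 were nearest the threshold for threat against naive, Zfat and March8 for place against naive, and Erich2 and Bpi for threat against place.

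At 24 h, 17 genes were higher in threat than in naive libraries (0.435% of all features were called), none differed between place and naive (0%; 213 had an unadjusted p under 0.05 in limma), and 2946 differed between threat and place, 2945 higher in threat (39.1%). With TMM scaling, which turned the median gene's difference to -0.03 for threat against naive and -0.05 for threat against place, 0, 0 and 0 were called, with 367, 340 and 509 at an unadjusted p under 0.05 in limma. The 17 became 0 without naive replicate 2, naive replicate 3, threat replicate 1 or threat replicate 2, 125 without place replicate 1, 3 without place replicate 2 or 3, 8 without place replicate 4 and 72 without threat replicate 3. The 2946 became 0, 135, 163, 540 and 913 without threat replicates 1 and 2 and place replicates 3, 4 and 2.

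Uqcrc1, a core subunit of respiratory complex III at 88.2 FPKM, was among the 17. Its 3 members averaged 0.864, 0.807 and 0.881 RPKM in threat, 0.634, 0.639, 0.756 and 0.594 RPKM in place and 0.582, 0.509 and 0.477 RPKM in naive libraries, so threat lay above both groups (0.51 ± 0.09 log2 units from naive; limma, adjusted p = 0.0372). Nfyb, a subunit of the transcription factor that binds CCAAT boxes, had 1.36, 1.49 and 1.09 RPKM in threat and 0.662, 0.795 and 0.791 RPKM in naive libraries (0.64 ± 0.11; limma, adjusted p = 0.0372). Tmem8c, RGD1562036 and 1700025K23Rik had differences of 0.49, 0.47 and 0.51.

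Between threat and place, Cacng7, an auxiliary subunit of AMPA receptors at 47.9 FPKM, had 1.11, 1.1 and 1.26 RPKM in threat and 0.783, 0.826, 0.691 and 0.631 RPKM in place libraries, with no overlap (0.52 ± 0.08 log2 units; limma, adjusted p = 0.0163). Vbp1, a prefoldin subunit, Oas2, an antiviral enzyme, Agbl5, which trims tubulin, and Psmg2, which helps assemble the proteasome, were higher by 0.59, 0.54, 0.53 and 0.52 log2 units. Pds5a, a regulator of cohesin, was the 1 gene lower in threat (-0.22 ± 0.08; limma, adjusted p = 0.0445), with 0.620, 0.634 and 0.611 RPKM in threat and 0.636, 0.863, 0.770 and 0.796 RPKM in place libraries. That call was lost without any 1 library other than naive replicate 3 or place replicate 1, and that of Cacng7 without threat replicate 1.

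The RNA calls among host genes depended on the naive libraries used, which carry no time label. Percents beside the counts of host genes are the shares called among all 13153 genes tested, hosts and others. Of 7148 host genes tested, 53 differed between threat and naive at 1 h (0.928%), 8 between place and naive (0.129%) and 0 between threat and place (0%). For the last, 324 hosts had an unadjusted p under 0.05 in limma. For threat 49 hosts were higher, where 0.806% of all genes tested were, and 4 lower, where 0.122% were. For place 5 were higher, where 0.0912% of all genes were, and 3 lower, where 0.038% were. At 24 h there were 681 between threat and naive (10.1%), 354 between place and naive (5.05%), and 0 between threat and place (0%; 189 at an unadjusted p under 0.05 in limma). For threat 215 hosts were higher, where 4.32% of all genes tested were, and 466 lower, where 5.77% were. For place 54 were higher, where 1.49% of all genes were, and 300 lower, where 3.56% were. Threat and place share the naive libraries.

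The order of the 2 times reversed between subsets of the naive libraries. With naive replicates 1 to 4 alone, 10 host genes were called for threat at 1 h and 2064 at 24 h, and with replicates 5 to 9 alone 1280 and 32. For place the counts were 1 and 1597 with replicates 1 to 4, and 737 and 8 with replicates 5 to 9. Leaving out 1 library also moved them. For threat at 1 h the count of 53 became 13, 23 and 32 without threat replicates 7, 4 and 5, 16, 18, 24, 30 and 31 without naive replicates 7, 8, 6, 5 and 9, and 318 without naive replicate 4. For place at 1 h the count of 8 became 0 to 2 without any of the 6 place replicates, 1 to 4 without any of naive replicates 5 to 9 and at most 12 otherwise. For threat at 24 h the count of 681 became 387 without threat replicate 5 and 403 and 408 without naive replicates 4 and 3. For place at 24 h the count of 354 became 135, 153 and 186 without place replicates 3, 5 and 2, 174, 175 and 216 without naive replicates 3, 4 and 2, and 601 without naive replicate 6.

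Among hosts with at least 20 members, the collagen genes Col5a1 and Col19a1 fell in both groups at 24 h. Col5a1 had 55 members and a median of 1.23 FPKM in threat 24 h libraries (1.12 to 1.47) and 1.21 FPKM in place 24 h libraries (0.933 to 1.4), against 4.17 FPKM in naive libraries (1.5 to 6.61), with no overlap. The differences from naive were -0.99 ± 0.16 in threat and -1.02 ± 0.17 in place log2(FPKM + 1) units (limma, adjusted p = 0.000341 and 0.00189). Naive replicates 1 to 4 held 4.43 to 6.61 FPKM and replicates 5 to 9 held 1.5 to 4.17 FPKM. Col19a1 fell by 0.59 in threat and 0.64 in place (limma, adjusted p = 0.000298 and 0.00134), Abcc5, a transporter, by 0.27 in threat and Col27a1 by 0.76 in place (limma, adjusted p = 0.000461 and 0.00254). With naive replicates 5 to 9 alone, the place calls of Col5a1 and Col27a1 were lost.

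At 1 h, Mll1, a histone methyltransferase with 21 members, had a median of 6.75 FPKM in threat libraries (5.97 to 7.36), against 5.56 FPKM in naive libraries (4.44 to 6.63), with overlap, and was higher by 0.27 ± 0.06 (limma, adjusted p = 0.0202). Pqlc1 and Spen, a transcriptional repressor, were higher by 0.30 and 0.17 (limma, adjusted p = 0.0222 and 0.0236). Atg5, an autophagy protein, was higher by 0.16 in threat and 0.19 in place libraries (limma, adjusted p = 0.0237 and 0.041). All 5 calls at 1 h were lost with naive replicates 1 to 4 alone, the 4 in threat also without threat replicate 7, and that of Atg5 in place without any 1 place library.

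Host genes called in RNA at 24 h had median MBD differences over their members near those of all genes. The 138 genes with higher RNA in threat at 24 h had a median MBD difference of 0.16 log2 units, 132 of them above 0 and 0 called, and the 350 with lower RNA had 0.18, with 342 above 0 and 2 called. The median over all 7365 genes was 0.17. For place at 24 h the medians were -0.04 for 28 genes with higher RNA and -0.02 for 231 with lower RNA, against -0.02 for all. At 1 h few genes were called: for threat 40 with higher RNA had a median of 0.18 and 2 with lower RNA 0.30, against 0.19 for all, and for place 5 with higher RNA had -0.09 and 1 with lower RNA 0.08, against 0.04 for all. Across 5395 genes the rank correlation between the MBD and the RNA difference lay between -0.05 and 0.00 in the 6 comparisons, and that between the MBD difference and host FPKM, across 7365 genes, between -0.07 and 0.06. Col5a1 had MBD differences of 0.22 ± 0.08 log2 units in threat (limma, adjusted p = 0.0791) and -0.05 ± 0.07 in place (limma, adjusted p = 0.999), while its RNA was lower in both.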

How the data were processed

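MBD values are deposited by the authors in RPKM (a signal, or coverage, for each 500 nt bin) and RNA values as FPKM per gene for 22865 genes; all 60 value columns were used and 0 were not. Per the labels, DNA was captured with the MethylMiner kit and directional RNA libraries were made from RNA of RIN above 8. Bowtie, TopHat 1.4.0, edgeR, DESeq2 and the builds rn5 and mm10 appear, with no roles given, per the submitters' processing notes. The tables are titled with a mouse build, but bins on chromosome 1 end at 290094000, as in rat rn5, so positions are in rn5. Whole reads were recovered from RPKM steps for 100% of values within 0.1 reads, and totals cover counting error only. RNA depth is unknown. The members and gene lists were chosen with earlier results of these data known.

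Bins with at least 1 RPKM and 2 times input at a time were fitted together, members and others, on log2(RPKM + 0.25) with limma 3.58.1 (trend, R 4.3.3) and the Benjamini-Hochberg threshold of 0.05, with the 3 captured groups in 1 fit per time. Gene-level means of at least 3 bins were fitted in the same way, with members and other captured bins of a gene as separate features. RNA was fitted on log2(FPKM + 1) for genes of at least 1 FPKM in at least 5 libraries. Fold changes on these scales understate those of low values. edgeR 4.0.16 on the recovered reads was an alternative, with and without TMM scaling. Fits were tested on simulated data. Means and sums over members are given without the planned permutation p, since members were chosen with results known. Host classes use the mean over 9 naive RNA libraries and bins in exactly 1 gene (112553 of the members). Named genes were the hosts with the most members, the highest and lowest shares, the strongest 24 h bins, the bins nearest the threshold, the largest called differences or lowest p in each comparison, up to 4 genes per list, and hosts of at least 20 members called in RNA. Choroid plexus levels by group were added after seeing the data. A gene that the rule names is not reported here.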

Additional observations from a re-analysis of the deposited data

Results flagged for a closer look

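In 8 of 144 sets of 4 to 10 libraries, 1 library stood apart from the rest of its group, and chance alone gives about 1 in 20. Of the MBD groups only place was examined, since the others held 3 libraries each. In MBD place libraries the values that stood apart were 1.01 RPKM in the Pls1 bin and 30.2 RPKM in the Lphn3 bin at 24 h, 2.64 RPKM in the Fam189a1 bin at 126867501 and 15.5 RPKM in the Arsj bin at 1 h, all highest in their group, and 0.590 RPKM for the Ptpn4 members at 24 h, lowest in its group. In RNA they were the lowest place libraries of Pqlc1 (8.59 FPKM) and Spen (3.36 FPKM) at 24 h and of Col27a1 (3.25 FPKM) at 1 h.

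Among the single bins named in the text, the only ones examined for this, every library of a group lay on opposite sides of the other group at the 2 times in 4, and the difference between times was not tested. As log2 ratios of group means at 1 h and 24 h, these were -1.25 and 0.65 for place over naive in Fam189a1 at 126868001, 0.56 and -0.68 for threat over naive in Myo3b, 1.25 and -0.73 for threat over place in Stx8, and -0.78 and 0.61 for place over naive in Cftr.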

How the results depend on the processing

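Over all deep bins at 24 h, the top class was compared with the lowest and with 0.1 to 1 FPKM under alternatives. Both differences kept their direction, as did the untested one between members and captured bins far from genes. The other class pairs, with that of 0.1 to 1 FPKM against the lowest, were not tried under alternatives. Both class tests of the top class gave p = 0.00195 over 10 libraries (exact sign-flip permutation) and the smallest p that 9 libraries can give when 1 was left out. Every library had the same input mean subtracted, so these tests do not cover the spread of input. When 1 library was left out, the top class differed from the lowest by -0.0241 to -0.0228 RPKM and from 0.1 to 1 FPKM by -0.0581 to -0.0562 RPKM. Members differed from captured bins far from genes by -0.322 to -0.310 RPKM. Captured over input in members at 24 h was 2.53, 3.14 with members of 2 RPKM and 4 times input, and 2.48 to 2.56 without 1 library. Shares of RPKM in members without 1 library gave ratios at 1 h of 1.13 to 1.22 (threat over naive), 0.989 to 1.07 (place over naive) and 1.09 to 1.18 (threat over place), and at 24 h of 1.15 to 1.21, 0.954 to 1.00 and 1.17 to 1.24. The 1 h ratio of place over naive, 1.03 with all libraries, fell below 1 without place replicate 4.

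Counts of calls moved, and the cause was not tested. For members, threat against naive at 1 h gave 31 with a pseudocount of 1, 9 with TMM, 10 with edgeR and TMM, 9 with a 0.5 RPKM filter and 120 with 2 RPKM and 4 times input; place against naive gave 10 with only those 2 groups; threat against place gave 7 with TMM, 7 and 32 with these filters. At 24 h threat against naive gave 5 with a pseudocount of 1, 0 with TMM in either tool, 12 and 0 with these filters, 20 with the 1 h bins and 0 with only 2 groups; threat against place gave 0 with TMM in either tool, 2323 with edgeR, 88 and 161 with these filters and 525 with the 1 h bins. Without 1 library the counts ran at 1 h over 8 to 2487, 3 to 13 and 11 to 130, and at 24 h over 0 to 103, 0 to 2 and 1 to 3585. Per gene at 24 h, threat against naive gave 96 with a pseudocount of 1, 2 with means of logs, 0 with TMM and 2310 with at least 10 bins, and threat against place 0 with TMM; at 1 h at least 10 bins gave 67, 1 and 1. Without 1 library they ran over 0 to 1412, 0 to 1 and 0 to 415 at 1 h and 0 to 125, 0 to 0 and 0 to 4134 at 24 h. In RNA, place against naive at 1 h gave 1 without a filter; naive replicates 1 to 4 gave 10, 1, 2064 and 1597, and replicates 5 to 9 gave 1280, 737, 32 and 8 (threat and place at 1 h, then at 24 h); without 1 library 13 to 318, 0 to 12, 0 to 0, 387 to 979, 135 to 601 and 0 to 0.

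The numbering of replicates was not used to pair libraries, since the correlations of same-numbered libraries' deviations from group means were not all over 0.1 (they ran from -0.142 to 0.0380 in MBD at 1 h, from -0.0559 to 0.0509 in MBD at 24 h, and from -0.497 to 0.587 in RNA, with a median of -0.0426 over 58 pairs). With the number as a replicate block, members called were 38, 14 and 90 at 1 h and 714, 3 and 2644 at 24 h, genes 37 and 88 at 1 h and 2232 for threat against naive at 24 h, and RNA hosts 22 and 2 at 1 h and 575 for place at 24 h.

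A member tested at 24 h held a median of 39 reads, which limits what single bins can show.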
